A study of Mus musculus with 10 samples.

Results

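DNA methylation was measured around the transcription starts of the genes for cytosolic ribosomal proteins, the protein components of the ribosomes outside mitochondria. The material was mouse metaphase II (MII) oocytes, eggs that are ready for fertilisation, and the label C57BL6/129 stood for the strain in all groups. Wild-type (WT) females of 11 months gave 3 libraries, Tet2 knockout (Tet2KO) females of 2 months gave 3, and WT females of 2 months, the shared control, gave 4. The labels do not give the knockout allele, they speak of 10 oocytes per sample in one place and of a single oocyte in another, and the deposited values are pooled over the libraries of a group, so each pool gave a single value per promoter and no difference below has a replicate check.

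Genes were taken by symbol: protein-coding genes whose symbol starts with Rpl or Rps and a digit or Rplp and a digit, and Rpsa, without the Rps6k kinases and pseudogenes. Of 89 such genes, 77 had a window listed for all 3 pools, out of 13451 protein-coding genes named by the same rule. A window spans 2000 bp around an annotated transcript start and was given to a gene when its centre lay within 200 bp of the gene's start in the GRCm38.p6 annotation, the assembly of mm10. The 77 genes had 139 such windows, which overlap within a gene, so 1 window per gene was used, that with the most calls in its poorest pool. The remaining genes were Rps2, whose window was listed for both WT pools, and Rpl7, Rpl17, Rpl19, Rpl22, Rpl29, Rpl32l, Rpl35, Rpl36, Rpl37rt, Rpl38 and Rps27l, which had no window under this rule. Of the 77 genes, 44 have large-subunit and 33 small-subunit symbols. The rule also takes in 9 genes that are paralogs, retrogenes or not ribosomal: Rpl3l, Rpl7l1, Rpl10l, Rpl22l1, Rpl36al, Rpl39l, Rps23rg1, Rps27rt and Rps19bp1, the last coding for a protein that binds Rps19.

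The ribosome is built from a small subunit, which decodes the mRNA, and a large subunit, which joins amino acids. Ribosomal protein genes are active in nearly every cell, and growing oocytes store ribosomes and their mRNAs for the embryo. Their promoters are CpG-rich in mammals, and CpG-rich promoters of active genes are commonly unmethylated. Bisulfite sequencing reads methylcytosine and hydroxymethylcytosine alike as methylated. TET2 oxidises the first of these forms to the second, so a shift between them would not show in these levels, and the levels do not check the genotype.

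Promoter stretches of 7 genes are given to show the CpG content behind the levels reported here. Each runs from 170 bases before a RefSeq start to 30 bases from it, 5′ to 3′, with every CpG in capitals, from the GRCm38.p6 promoter table. Rpl41 (chr10:128549139-128549338, minus strand), Rpl27 (chr11:101442075-101442274, plus strand) and Rps9 (chr7:3703871-3704070, plus strand) are shown because 2-month WT stood apart from both other pools there. Rpl3l (chr17:24727656-24727855, plus strand) is shown because it was highest in Tet2KO. Rps27rt (chr9:114982710-114982909, minus strand) is shown because it was high in all pools, and Rpl5 (chr5:107900358-107900557, plus strand) because it was low in all of them. Rpl18 (chr7:45717901-45718100, plus strand) is shown because 2 of its starts differed.
Rpl41: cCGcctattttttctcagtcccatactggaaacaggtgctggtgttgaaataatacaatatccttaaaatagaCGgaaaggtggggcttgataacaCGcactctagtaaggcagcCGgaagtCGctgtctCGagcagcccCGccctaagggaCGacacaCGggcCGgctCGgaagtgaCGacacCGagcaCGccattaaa
Rpl27: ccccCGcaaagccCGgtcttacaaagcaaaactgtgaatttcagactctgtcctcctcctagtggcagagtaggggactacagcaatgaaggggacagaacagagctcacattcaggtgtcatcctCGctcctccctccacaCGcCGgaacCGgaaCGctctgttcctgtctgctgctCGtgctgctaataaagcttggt
Rps9: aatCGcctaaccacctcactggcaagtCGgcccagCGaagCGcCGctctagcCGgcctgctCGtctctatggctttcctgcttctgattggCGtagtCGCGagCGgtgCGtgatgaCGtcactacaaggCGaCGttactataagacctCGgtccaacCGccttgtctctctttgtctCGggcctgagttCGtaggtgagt
Rpl3l: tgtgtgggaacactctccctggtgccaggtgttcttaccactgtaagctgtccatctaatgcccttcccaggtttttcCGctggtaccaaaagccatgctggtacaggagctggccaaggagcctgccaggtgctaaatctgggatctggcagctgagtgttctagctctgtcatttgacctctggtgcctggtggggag
Rps27rt: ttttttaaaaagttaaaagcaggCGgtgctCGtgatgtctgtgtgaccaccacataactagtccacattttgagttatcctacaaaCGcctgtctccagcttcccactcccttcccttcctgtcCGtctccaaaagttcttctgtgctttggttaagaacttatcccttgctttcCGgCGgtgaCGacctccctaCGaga
Rpl5: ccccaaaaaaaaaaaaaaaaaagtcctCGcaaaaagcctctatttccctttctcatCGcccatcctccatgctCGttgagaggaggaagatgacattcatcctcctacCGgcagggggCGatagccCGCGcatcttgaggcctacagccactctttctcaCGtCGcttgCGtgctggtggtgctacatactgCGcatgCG
Rpl18: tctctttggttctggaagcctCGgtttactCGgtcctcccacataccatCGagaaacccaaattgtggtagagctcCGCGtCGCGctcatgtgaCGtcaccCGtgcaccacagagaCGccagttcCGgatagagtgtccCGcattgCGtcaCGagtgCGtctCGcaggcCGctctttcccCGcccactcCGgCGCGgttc
These stretches hold 14 CpGs for Rpl41, 8 for Rpl27, 19 for Rps9, 1 for Rpl3l, 8 for Rps27rt, 12 for Rpl5 and 21 for Rpl18. Of the 77 genes, 61 had an entry in the promoter table, which covers 250 bases before and 50 after a start. Their median was 21 CpGs per 300 bases, with a range of 2 to 42, against a median of 13 over 17492 protein-coding genes. The letters CCGGAA, the core bound by ETS factors such as GABPA, occurred on either strand in 45.9% of the member promoters and 19.1% of all promoters. AAGATGGC, a form of the YY1 site, occurred in 8.20% and 3.21%, and TATAAA in 8.20% and 13.3%. CCGGAA itself holds a CpG, and its share over promoters as CpG-rich as the members was not counted. A C at the start followed by 4 pyrimidines, the opening of the terminal oligopyrimidine tract by which translation of these mRNAs is controlled, was found in 18.03% of members and 2.17% of all promoters. This opening was sought only at the exact RefSeq start base, so a tract that begins a few bases away was not counted. Of Rpl41, Rpl27 and Rps9, the only ones of the 7 genes called lower below that had an entry, 2 held CCGGAA and 0 had that opening at the exact base. A match is a run of letters in the window and not a measured binding site.

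The 3 tables hold 30431118 CpG calls for 11-month WT, 8610762 for Tet2KO and 15046863 for 2-month WT, and the median nuclear window held 159, 75 and 100 calls in the same order. The level of a window is the share of its CpG calls that were methylated, in percent. Intervals are Wilson 95% intervals for levels and Newcombe 95% intervals for differences, and both cover counting error only. Where 0 calls were methylated, the level said to be allowed is 3 calls of the total, a limit somewhat below the upper Wilson bound. As a check of the oocyte label, 5 of 10 listed genes of maternally methylated imprinted clusters (Peg3, Plagl1, Nap1l5, Mcts2 and Peg10) lay between 65.0% and 100% in every pool, and the other 5, whose windows need not cover the imprinted region, at 10.2% or less.

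Ribosomal protein promoters were mostly low in every pool, yet above the typical CpG-rich promoter. The median level over the 77 genes was 4.41% in 11-month WT, 4.60% in Tet2KO and 6.13% in 2-month WT. The median over all 13451 genes was 2.22%, 1.72% and 2.5%, and over the 10256 genes with 40 or more covered CpG positions in one of the pools, a class that held 73 of the 77, it was 1.98%, 1.57% and 2.24%. Of the 77 genes, 43 lay under 5% in 11-month WT, 40 in Tet2KO and 35 in 2-month WT, which is 55.8%, 51.9% and 45.5% of them. Of the CpG-rich genes 80.2%, 80.4% and 71.0% lay under 5%. Above 20% were 3 ribosomal protein genes in 11-month WT, 5 in Tet2KO and 13 in 2-month WT. In 11-month WT that is 3.90% of the 77, against 9.52% of all genes and 4.71% of CpG-rich genes. In Tet2KO it is 6.49%, against 9.87% and 4.99%, and in 2-month WT 16.9%, against 10.7% and 6.16%. The share of members above 20% was thus below that of all genes in 11-month WT and Tet2KO and above it in 2-month WT. Against CpG-rich genes it was slightly lower in 11-month WT (3 members), slightly higher in Tet2KO (5 members) and higher in 2-month WT.

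**Figure D1:**
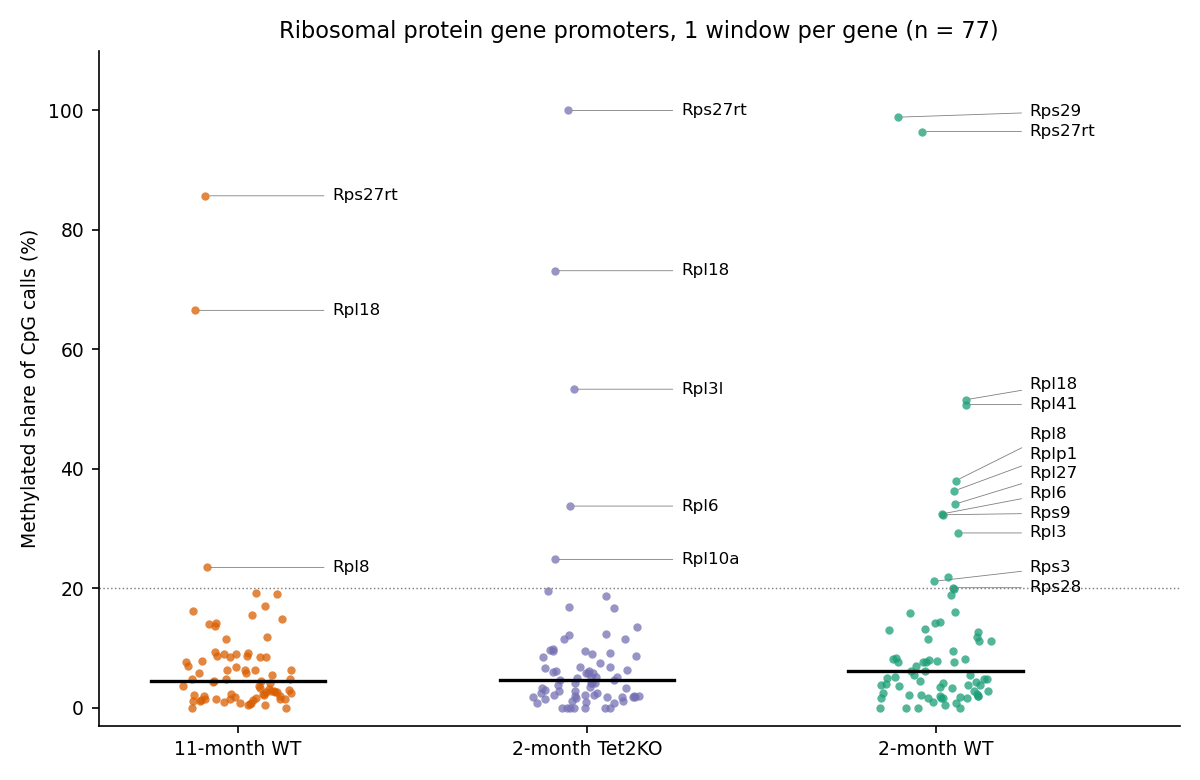
Level of each of the 77 ribosomal protein gene promoters (methylated share of CpG calls, percent) in the 11-month WT, 2-month Tet2KO and 2-month WT pools, 1 point per gene. Black bars are medians (4.41%, 4.60% and 6.13%), most genes above the dotted line at 20% are named, and 13 lie above it in 2-month WT, against 5 in Tet2KO and 3 in 11-month WT.

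The core genes with the lowest levels had 0 methylated calls in some pools. Rpl4, a protein that lines the exit tunnel, had 0 of 222 calls in 11-month WT, which allows a level of up to 1.35%, 1.85% (54 calls) in Tet2KO, and 0 of 141 calls in 2-month WT, which allows up to 2.13%. Rpl5, which brings 5S rRNA into the large subunit, was at 1.23% in 11-month WT, 0% (173 calls) in Tet2KO and 0.763% in 2-month WT. Rps4x, the X-linked small-subunit protein, was at 0.649%, 0% (64 calls, which allows up to 4.69%) and 1.72% in the same order. Across the 77 genes, 2 had no methylated call in 11-month WT, 7 in Tet2KO and 4 in 2-month WT, and the Tet2KO pool had the fewest calls per member (median 144, against 410 in 11-month WT and 234 in 2-month WT). The share of all genes without a methylated call was not counted.

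The first comparison addressed maternal age and set 11-month WT against 2-month WT. At 11 months, 6 of the 77 genes were lower by 20 percentage points or more, which is 7.79%, where 2.45% of all genes, 1.82% of CpG-rich genes and 2.76% of the 40537 shared windows were. They were Rps29, Rpl41, Rplp1, Rpl27, Rpl3 and Rps9. Higher by 20 points or more were 0 genes, where 1.79% of all genes, 0.878% of CpG-rich genes and 2.78% of windows were. The median difference over the 77 was -1.07 points, against 0 over all genes, with 32 genes higher, 44 lower and 1 equal. The interval of the difference lay below 0 at 28 genes (36.4%, against 18.8% of all genes) and above 0 at 9 (11.7%, against 9.72%). Since each pool is a single value, no test of these counts was possible.

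The second comparison addressed loss of Tet2 and set Tet2KO against 2-month WT, both at 2 months. In Tet2KO, 6 of the 77 genes were lower by 20 points or more (7.79%, where 2.83% of all genes, 2.06% of CpG-rich genes and 3.22% of windows were): Rps29, Rpl41, Rpl8, Rplp1, Rps9 and Rpl27. Rpl3l and Rpl18 were higher by 20 points or more, 2.60% of the members, where 2.09% of all genes, 1.17% of CpG-rich genes and 3.29% of windows were. The median difference was -1.04 points, against -0.366 over all genes, with 30 genes higher and 47 lower. The interval lay below 0 at 20 genes (26.0%, against 14.9%) and above 0 at 9 (11.7%, against 7.50%). Both comparisons use the same 2-month WT pool, so a high value in that pool enters both.

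The third comparison leaves that pool out and sets Tet2KO at 2 months against WT at 11 months, groups that differ in age and genotype. Only Rpl3l was higher in Tet2KO by 20 points or more, which is 1.30% of members, where 1.45% of all genes, 0.8% of CpG-rich genes and 2.09% of windows were. Lower by 20 points or more were 0 genes, where 1.26% of all genes, 0.634% of CpG-rich genes and 1.94% of windows were. The median difference was 0.451 points, against -0.396 over all genes, with 43 genes higher and 34 lower. Using the deposited fraction made that median -0.385 points, and counting every window made it -0.557. The interval lay above 0 at 12 genes (15.6%, against 8.24% of all genes) and below 0 at 8 (10.4%, against 8.12%). Of the genes called lower against 2-month WT, Rps29 differed here by 0.461 points, Rplp1 by 0.939, Rpl41 by 2.67 and Rps9 by -2.33. Rpl3 differed by 5.91 points (1.04 to 12.2) and Rpl27 by 6.06 (0.559 to 13.1), both with intervals above 0. Rpl8 differed most among them, at -19.4 points.

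**Figure D2:**
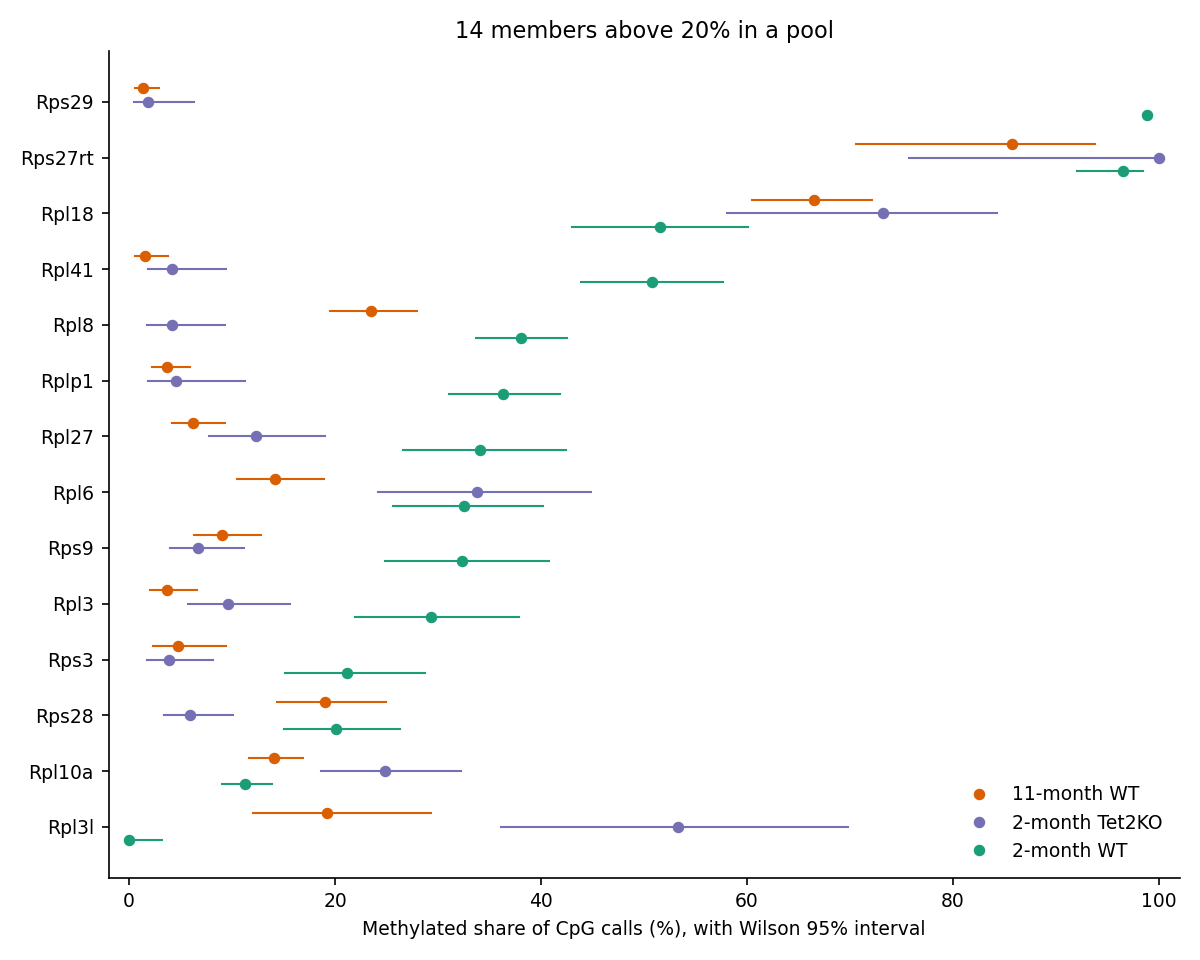
Level with Wilson 95% interval for 14 members above 20% in a pool, 1 row per gene, with the 11-month WT, 2-month Tet2KO and 2-month WT pools from top to bottom in each row. Rps29, Rpl41, Rplp1, Rpl27, Rps9, Rpl3, Rps3 and Rpl8 have a 2-month WT interval to the right of both others, while Rpl18 and Rps27rt are high in every pool. Members were chosen for a level above 20% in a pool, so the place of that pool's interval partly follows from the choice. How often intervals separate in this way over all genes was not counted.

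Among the proteins of the P stalk, which recruits translation factors to the large subunit, 1 of 3 genes differed widely. Rplp1 (chr9:61913539-61915538) was at 3.66% (410 calls, interval 2.23 to 5.95) in 11-month WT, 4.60% (87 calls, interval 1.80 to 11.2) in Tet2KO and 36.3% (303 calls, interval 31.1 to 41.9) in 2-month WT. The 2-month WT interval did not meet the others. The difference was -32.6 points for age (-38.4 to -27.0) and -31.7 for Tet2KO (-37.9 to -23.3). Rplp0, the protein that anchors the stalk, was low throughout, at 1.67% in 11-month WT, 2.05% in Tet2KO and 4.21% in 2-month WT. Rplp2, the partner of Rplp1, was at 2.85% (526 calls), 13.6% (103 calls) and 7.02% (285 calls) in the same order, highest in Tet2KO.

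In the core of the large subunit, Rpl41 showed the widest gap. Rpl41, the shortest protein of the ribosome, was at 1.50% (267 calls, interval 0.584 to 3.79) in 11-month WT, 4.17% (120 calls, interval 1.79 to 9.38) in Tet2KO and 50.8% (197 calls, interval 43.8 to 57.7) in 2-month WT, in the window chr10:128548103-128550102. The differences were -49.3 points for age (-56.2 to -42.0) and -46.6 for Tet2KO (-53.9 to -37.9). Its 4 windows, with centres up to 137 bp from the start, were at 43.0% to 54.4% in 2-month WT and under 5% in the other pools. The stretch printed for Rpl41 lies in these windows, which were low in both pools other than 2-month WT.

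Rpl3 and Rpl8, both close to the site of peptide bond formation, differed from each other in the 11-month pool. Rpl3 (chr15:80082354-80084353) was at 3.65% (274 calls) in 11-month WT, 9.56% (136 calls) in Tet2KO and 29.3% (123 calls) in 2-month WT. Rpl8 (chr15:76903071-76905070) was at 23.5% (383 calls, interval 19.5 to 28) in 11-month WT, 4.13% (121 calls, interval 1.78 to 9.31) in Tet2KO and 38.0% (460 calls, interval 33.7 to 42.6) in 2-month WT. Rpl8 was thus lowest in Tet2KO, with the 11-month pool between the others. Its difference was -33.9 points for Tet2KO (-39.0 to -27.2) and -14.5 points for age (-20.6 to -8.31). Rpl3 was at -25.6 points for age (-34.3 to -17.7) and -19.7 for Tet2KO (-29.1 to -10.2), the last just short of 20 points. By the deposited fraction, which weights every covered position alike, Rpl3 was at 17.0% in 2-month WT and its age difference was -9.82 points.

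Rpl27 and Rpl6 are further core proteins of the large subunit. Rpl27 (chr11:101441298-101443297) was at 6.25% (352 calls) in 11-month WT, 12.3% (130 calls) in Tet2KO and 34.1% (135 calls) in 2-month WT. Its difference was -27.8 points for age (-36.4 to -19.8) and -21.8 for Tet2KO (-31.3 to -11.7), and by the deposited fraction the second was -16.8. Rpl6 (chr5:121203481-121205480) was low at 11 months instead, at 14.2% (261 calls), against 33.8% (77 calls) in Tet2KO and 32.5% (154 calls) in 2-month WT. Its age difference was -18.3 points (-26.9 to -9.92), and its Tet2KO difference was 1.30 points with an interval of -11.0 to 14.4. Rpl10, a protein added last to the subunit and encoded on the X chromosome, had 0 of 184 calls methylated in 11-month WT, which allows up to 1.63%, against 9.76% (82 calls) in Tet2KO and 19.9% (191 calls) in 2-month WT. Its age difference of -19.9 points (-26.1 to -14.5) was just short of the threshold, and by the deposited fraction it was -31.8.

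Other large-subunit genes were higher at 11 months or in Tet2KO than in 2-month WT. Rpl26, which in human cells also binds p53 mRNA, was at 4.41% (454 calls) in 11-month WT, 18.6% (118 calls) in Tet2KO and 0% (160 calls) in 2-month WT, which allows up to 1.88%. Its Tet2KO difference was 18.6 points (12.2 to 26.6), and by the deposited fraction it was at 14.3%, 18.2% and 0%. Rpl10a was at 14.0%, 24.8% and 11.2% in the same order, but by the deposited fraction at 17.2%, 17.5% and 15.0%. Rpl28 was at 13.7% (432 calls) in 11-month WT, 5.80% (138 calls) in Tet2KO and 2.05% (146 calls) in 2-month WT, with an age difference of 11.6 points (6.80 to 15.4). Rpl23a, at the mouth of the exit tunnel, was at 17.0% in 11-month WT, 1.20% (83 calls) in Tet2KO and 7.63% in 2-month WT. Rpl35a was higher at 11 months by 7.60 points, and Rpl34 was lower in Tet2KO, at 4.07% (344 calls), with 14.9% (415 calls) at 11 months and 14.2% (253 calls) in 2-month WT. By the deposited fraction Rpl34 was at 9.66% in 11-month WT, 8.95% in Tet2KO and 15.7% in 2-month WT, so the order depended on the measure.

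In the small subunit, Rps29 had the most extreme value of all members. Rps29 (chr12:69158187-69160186), a zinc-binding protein of the subunit's head, was at 1.32% (453 calls, interval 0.608 to 2.86) in 11-month WT, 1.79% (112 calls, interval 0.491 to 6.28) in Tet2KO and 98.9% (12819 calls, interval 98.7 to 99.0) in 2-month WT. The differences were -97.6 points for age (-98.3 to -96.0) and -97.1 for Tet2KO (-98.4 to -92.6). Depth moved with the level here. In 2-month WT the window held 128.2 times the pool's median number of calls, against 2.85 times in 11-month WT and 1.49 times in Tet2KO, and 140.9 calls per covered position, where the median over the 77 genes was 3.24. Only 144 of the calls were unmethylated, and the window had 91 covered positions. Equal numbers of calls at every position would make the measures equal, so these calls were spread unevenly over the positions. The deposited fraction put Rps29 at 0.751% in 11-month WT, 2.99% in Tet2KO and 42.6% in 2-month WT, so the measures differed by 56.3 points in the last pool. Under that measure the differences were -41.9 points for age and -39.6 for Tet2KO, and whether the excess calls bear on them was not tested.

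Rps9, Rps3 and Rps16 had no such excess of calls. Rps9 (chr7:3703038-3705037), which binds the small-subunit rRNA early in assembly, was at 9.06% (309 calls) in 11-month WT, 6.74% (193 calls) in Tet2KO and 32.3% (130 calls) in 2-month WT. Its differences were -23.2 points for age (-32.1 to -14.9) and -25.6 for Tet2KO (-34.5 to -16.9). Rps3, at the entry of the mRNA channel, was at 4.73%, 3.85% and 21.2% of 148, 156 and 137 calls in the same order; by the deposited fraction it was at 4.81%, 8.80% and 11.0%. Rps16 was at 5.79%, 4.64% and 18.9%, and its 2-month WT deposited fraction of 19.8% was close to its call share.

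Further small-subunit genes divided in different ways. Rps27a, made as a fusion with ubiquitin, was at 1.45% in 11-month WT, 0% (183 calls) in Tet2KO and 15.9% (88 calls) in 2-month WT. Rps28 was low in Tet2KO alone, at 5.91% (203 calls), against 19.05% (210 calls) in 11-month WT and 20.1% (194 calls) in 2-month WT (Tet2KO difference -14.2 points, -20.9 to -7.68). The Rps28 window also holds the start of Ndufa7. Rps3a1 was at 15.5% in 11-month WT, 19.5% in Tet2KO and 9.49% in 2-month WT, and Rps15a at 9.07%, 16.9% and 4.35% in the same order. Both were highest in Tet2KO by the call share, while by the deposited fraction Rps3a1 was not. Rpsa, the laminin receptor homologue of the small subunit, was at 4.81%, 5.03% and 6.13% by the call share. By the deposited fraction it was at 11.0%, 5.95% and 7.66%, so that the 11-month pool was the highest and not the lowest.

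Differences of 10 points or more by the call share were set beside those of all 13451 genes. Lower by that much were 15 of the 77 members for age and 14 for Tet2KO, against 980 and 1109 genes. Higher were 3 and 6 members, against 573 and 684 genes. In Tet2KO against 11-month WT, 4 members were lower and 6 higher, against 569 and 566 genes. All 3 differences stayed under 10 points at 50 of the 77 members, a count not made over all genes. The levels of these 50 had medians of 2.85% in 11-month WT, 2.90% in Tet2KO and 3.89% in 2-month WT. They reached 16.1% at 11 months (Rpl12, a protein at the base of the P stalk, whose window also holds the start of Lrsam1) and 15.98% in 2-month WT (Rps10). Rpl7a, Rpl9, Rpl15, Rpl37a, Rps15 and Rps19, which were among the deepest windows of some pool, all lie in this range. Rps18, of the small subunit's head, was at 9.29% (635 calls) in 11-month WT, 0% (52 calls) in Tet2KO and 7.63% (236 calls) in 2-month WT. By the deposited fraction Rps18 was further apart, at 16.9%, 0% and 7.28%, with differences of 9.63 points for age and -16.9 for Tet2KO against 11-month WT.

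Among paralogs and retrogenes, Rps27rt was high in every pool and Rpl3l in Tet2KO. Rps27rt, a retrogene of Rps27, was at 85.7% (35 calls) in 11-month WT, 100% (12 calls) in Tet2KO and 96.5% (142 calls) in 2-month WT (chr9:114981741-114983740). Rpl3l, a paralog of Rpl3 used in striated muscle, was at 19.2% (78 calls, interval 12.0 to 29.3) in 11-month WT, 53.3% (30 calls, interval 36.1 to 69.8) in Tet2KO and 0% (118 calls) in 2-month WT, which allows up to 2.54% (chr17:24726820-24728819). Its Tet2KO difference of 53.3 points (35.9 to 69.8) rests on 30 calls, and its window does not reach 50 calls in every pool. The printed Rpl3l stretch, with its single CpG, is CpG-poor beside the core genes. Rpl10l, a paralog of Rpl10 used in the testis, was at 5.48%, 6.34% and 11.2% in 11-month WT, Tet2KO and 2-month WT. Rpl39l, another testis paralog, was at 1.11%, 0% (21 calls, which allows up to 14.3%) and 2.80% in the same order.

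The Rpl18 value depended on which start was taken. The annotated gene begins 2604 bp upstream of its RefSeq promoter entry, and the window at that upstream end (chr7:45714457-45716456) was at 66.5% (251 calls) in 11-month WT, 73.2% (41 calls) in Tet2KO and 51.6% (128 calls) in 2-month WT. The window at the promoter entry (chr7:45717071-45719070), which contains the stretch of 21 CpGs printed above, was at 8.10% (358 calls), 8.0% (200 calls) and 7.33% (273 calls) in the same order. The Tet2KO difference was 21.6 points (4.28 to 35.7) at the upstream end and 0.674 points (-4.11 to 5.92) at the promoter entry. Taking promoter entries in place of the gene's end, an option chosen after seeing the data, gave 82 members, adding Rps2, Rpl19, Rpl22, Rpl38 and Rps27l. Rps2, a protein of the mRNA entry site, was then at 7.87% (559 calls) in 11-month WT, 0.971% (103 calls) in Tet2KO and 21.9% (498 calls) in 2-month WT, where its window at the annotated gene end was at 100% (31 calls) in 11-month WT and 100% (18 calls) in 2-month WT. Rpl22 was at 9.87%, 9.28% and 21.5% in 11-month WT, Tet2KO and 2-month WT. Counts of lower genes were then 6 for age and 7 for Tet2KO.

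Call share and deposited fraction lay a few points apart at most members, with the call share more often the lower. The median absolute gap between them was 1.62 points in 11-month WT, 1.10 in Tet2KO and 1.83 in 2-month WT. The call share was the lower at 55, 48 and 45 members in the same order and the higher at 20, 20 and 28. The median deposited fraction was 6.85%, 6.18% and 8.33%. By that measure 11-month WT lay above Tet2KO, while by the call share it lay below. A gap over 10 points occurred at 0 members in 11-month WT, 0 in Tet2KO and 4 in 2-month WT, namely Rps29, Rpl3, Rps3 and Rpl10, the last with the higher deposited fraction. Across the 77 genes, which are not independent replicates and share the calls of a library pool, Pearson's r between the measures was 0.980, 0.987 and 0.912 in 11-month WT, Tet2KO and 2-month WT. Rpl41, Rplp1, Rpl27 and Rps9 had deposited fractions of 55.6%, 35.5%, 30.7% and 31.7% in 2-month WT, close to their call shares.

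**Figure D3:**
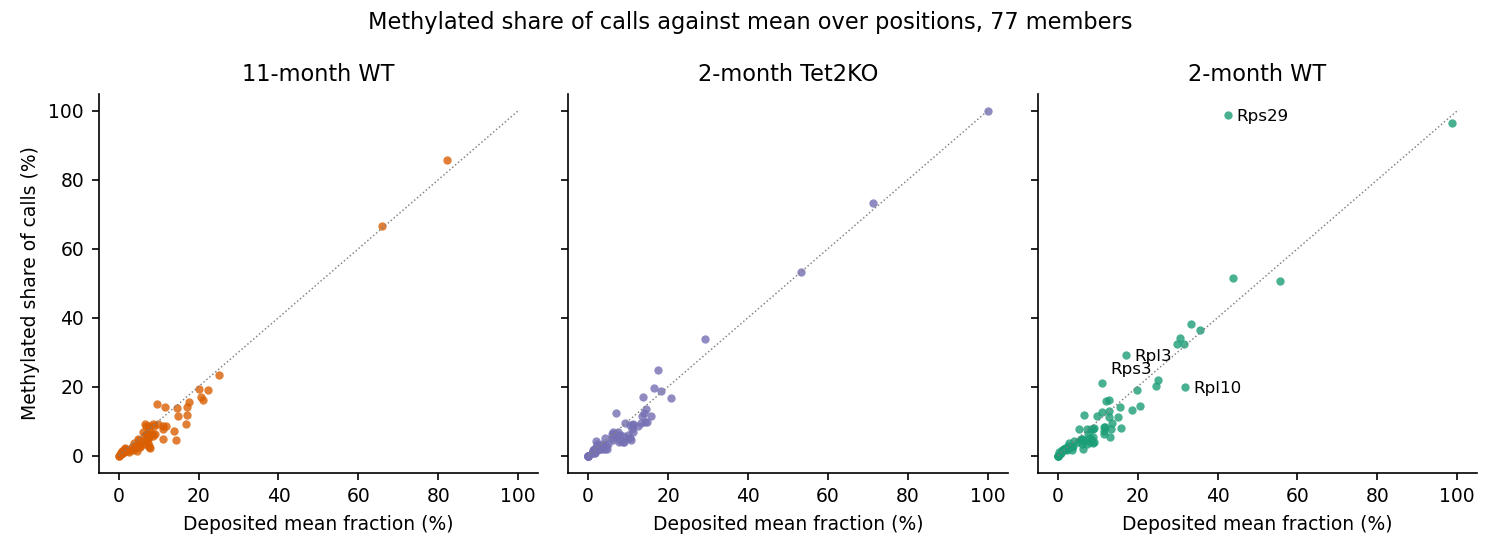
Methylated share of calls (vertical, percent) against the deposited mean over covered positions (horizontal, percent) for the 77 members in each pool, with the line of equality dotted and genes more than 10 points apart named. Only the 2-month WT panel has named genes, with Rps29 at 98.9% of calls and 42.6% by position.

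Call depth and level were also set side by side. Member windows held a median of 2.58 times the pool's median calls in 11-month WT, 1.92 times in Tet2KO and 2.34 times in 2-month WT. Spearman's rho between calls and level over the 77 genes was 0.033, -0.127 and 0.085 in the same order, given as a description. Rpl36al, a copy of Rpl36a whose window also holds the start of Mgat2, was the deepest member in 11-month WT and Tet2KO, and Rpl10a was deeper in 2-month WT, at 6.60 times the median. Rpl36al was at 10.6, 10.9 and 6.20 times the median in the 3 pools, with levels of 3.09%, 1.83% and 7.58%. The start of another protein-coding gene was found in the window of 9 members, none of them among the genes 20 points apart. They include Rplp2 (with Pidd1), Rpl35a (Iqcg), Rps18 (Vps52) and Rps28 (Ndufa7). Only genes with a strand in the promoter table and 1 start per gene were searched, so further starts may have been missed. The 3 most methylated members in Tet2KO were shallow: Rps27rt had 12 calls there, Rpl3l 30 and Rpl18 41.

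**Figure D4:**
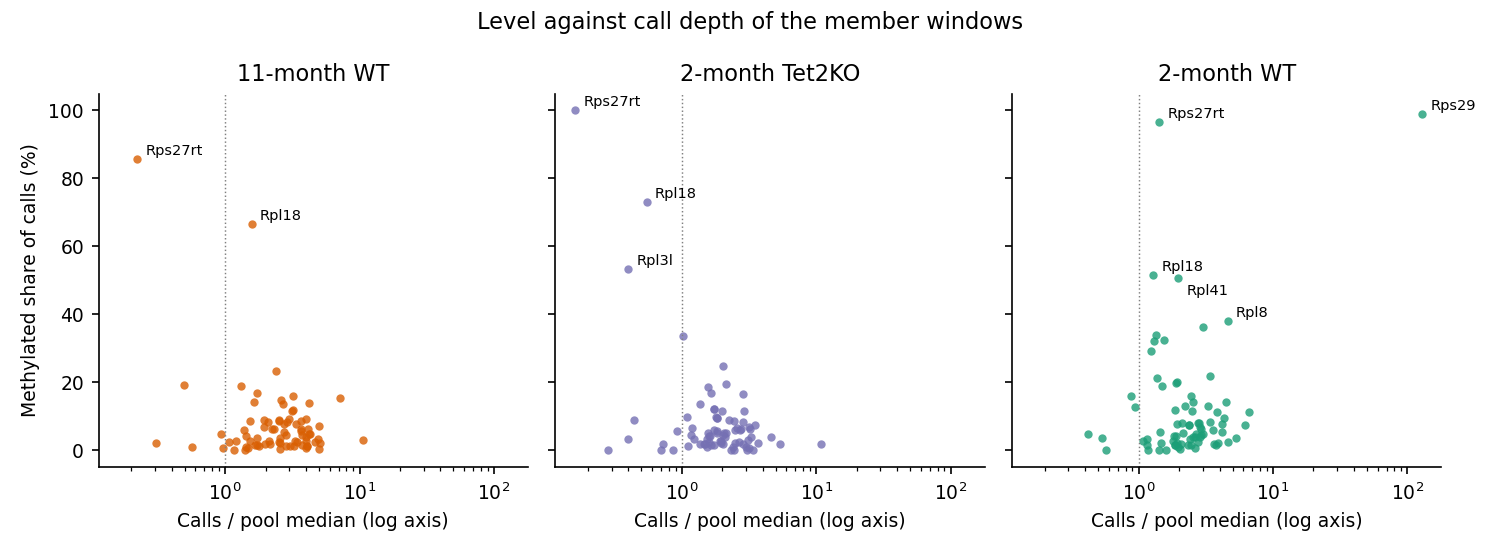
Level (methylated share of calls, percent) against calls in the window divided by the pool's median (log axis) for the 77 members in each pool, with the dotted line at the median. Rps29 in 2-month WT stands alone at 128.2 times the median, and Rps27rt, Rpl3l and Rpl18, the 3 most methylated Tet2KO members, lie left of the line.

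Both subunits held genes 20 points apart, and so did the 13451 protein-coding genes, of which 2.45% were lower and 1.79% higher for age, and 2.83% lower and 2.09% higher for Tet2KO. Among large-subunit symbols 4 of 44 were lower by 20 points or more at 11 months and 4 in Tet2KO, which is 9.09% in each, and among small-subunit symbols 2 of 33 in each, or 6.06%. Of subunit genes named otherwise, Rack1, a scaffold on the small subunit, was at 14.7% in 11-month WT, 6.56% in Tet2KO and 38.3% (248 calls) in 2-month WT. Fau, which gives Rps30, was at 12.2%, 3.46% and 4.94% in the same order. Mitochondrial ribosomal proteins had 2 of 65 genes lower at 11 months, 2 lower in Tet2KO and 1 higher in each, or 3.08% lower and 1.54% higher in both, close to the share over all genes. Mrpl37 was at 2.17%, 3.69% and 36.3%. Translation factors had 1 of 67 lower at 11 months (1.49%), and 2 lower (2.99%) and 1 higher (1.49%) in Tet2KO, likewise near the share over all genes or below it. Eef2k, the kinase of elongation factor 2, was at 61.1%, 97.5% (40 calls) and 48.5%. Ribosome assembly genes had 2 of 50 lower at 11 months (4%), and 3 lower (6%) and 1 higher (2%) in Tet2KO. Nhp2, a protein of H/ACA particles, was at 6.82%, 1.92% and 33.0%, and Eif6, which keeps the subunits apart and stands in both lists, at 1.42%, 0% and 24.6%. Median differences of these 3 lists lay between -0.577 and -0.209 points for age and between -1.36 and -0.101 for Tet2KO. No difference between the lists was tested.

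**Figure D5:**
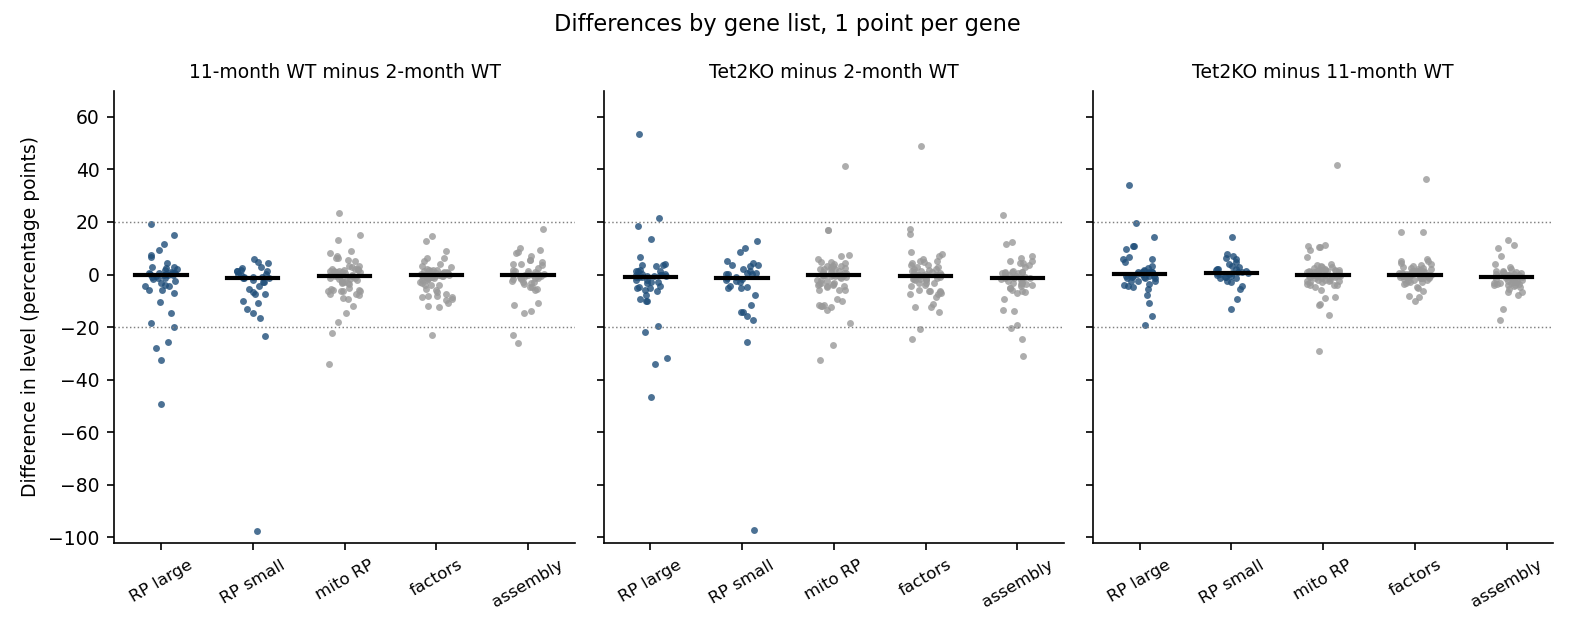
Difference in level (percentage points) for each comparison and gene list, 1 point per gene, with black bars at medians and dotted lines at 20 points in each direction; RP is cytosolic ribosomal protein, mito RP mitochondrial ribosomal protein. The low points of the cytosolic lists in the comparisons with 2-month WT reach -97.6 and -97.1 (Rps29), and in Tet2KO against 11-month WT the cytosolic points stay above the lower line.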

How the data were processed

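Low-input DNA methylation libraries were made from MII oocytes after a published method, per the labels' protocols. The submitters' processing notes list Trimmomatic, Bismark 12.5 and the build mm10 and give none of them a role; Bismark is an aligner for bisulfite reads. The authors deposited 1 table per group, with no header and 1 value per window, taken here as pooled over the group's libraries. Its columns were identified from the values. Per 2000 bp window the authors gave a count of methylated calls, the coverage as all CpG calls, and the number of covered positions, and the deposited fraction is the mean methylated share over covered positions. The smallest listed values are 10 calls and 5 positions. One incomplete row that ends the 2-month WT file, on the X chromosome, was dropped.

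Levels were 100 times methylated over all calls. Windows listed for all 3 pools were used. Strand came from the promoter table; 16 of the 77 members had none there and took a window at either gene end; a gene with a window at each end was not used. A gene was called at 20 points. No test was possible with 1 pooled value per group. Named genes were members 20 points apart or above 20%, the 5 highest and lowest other differences per comparison, Rpsa and the P-stalk genes, and the 5 deepest members per pool; not all are described, and a few are not reported here. Rpl4, Rpl5, Rps4x, Rpl10l, Rpl39l, Rpl12, Rps10, Rps2 and Rpl22 were singled out after their values were seen. For other lists, the 3 members with the largest difference per comparison could be named. Members, lists and tests were chosen with earlier results of these data known. The steps were tested on simulated counts. Python 3.11.15, pandas 2.3.3 and scipy 1.17.1 were used.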

Additional observations from a re-analysis of the deposited data

Results flagged for a closer look

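Rpl3l has a further RefSeq start whose window was not used in the comparisons (chr17:24731685-24733684). It was at 29.3% (99 calls) in 11-month WT, 90.5% (42 calls) in Tet2KO and 14.0% (43 calls) in 2-month WT. It was singled out because the Tet2KO level lay above that of 2-month WT by 76.5 points (interval 58.2 to 85.9). The cause was not tested.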

How the results depend on the processing

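Of 15 gene and comparison pairs called at 20 points, 12 kept the call in every alternative that listed the gene. Several alternatives only leave out genes or windows. They mostly leave the value of a kept gene as it was and could hardly change its call. Rpl3 for age and Rpl27 for Tet2KO lost it by the deposited fraction (-9.82 and -16.8 points), and Rpl18 for Tet2KO with starts from the promoter table (0.674). Lower genes for age numbered 4 to 6 and for Tet2KO 5 to 7 in all alternatives but 2: with every window counted there were 13 and 13 of 139 windows, and with a threshold of 10 points 15 and 14, with 4 lower in Tet2KO against 11-month WT. Higher genes numbered 3, 6 and 6 at 10 points (age, Tet2KO, Tet2KO against 11-month WT). Of all 13451 genes, 980, 1109 and 569 were lower and 573, 684 and 566 higher at that threshold, in the same order. By the deposited fraction, 2 members were higher by 20 points or more for age and the median level of 11-month WT was 6.85%. Higher genes in Tet2KO numbered 0 with 50 calls in every pool, and 1 without paralogs, with 40 or more covered positions or with starts from the promoter table. Against 11-month WT they numbered 0 with 50 calls, without paralogs and with 40 positions. The median difference of Tet2KO against 11-month WT was -0.385 by the deposited fraction and -0.557 over every window. Without windows whose relative depth differed over 4-fold between pools, which removes Rps29, 5 genes were lower in each comparison with 2-month WT. The starts from the promoter table and the minimum of 40 positions were chosen after seeing the data. No paired analysis was possible because the deposited values, 1 per window and group, are taken as pooled over the libraries, and no library could be left out.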
